A study of Sus scrofa with 54 samples.

Results

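The ileum of piglets suckled on the sow at an indoor facility (IN) was compared with that of piglets suckled on the sow at an outdoor facility (OUT) at day 28, the day of weaning. The arrays were those whose labels name a sow-reared piglet, its facility and day 28. These were 6 IN and 6 OUT arrays, 1 per piglet, of the 54 arrays in the series. The series also holds days 5 and 56 and another group, IR, of piglets that were moved from the indoor facility into individual isolator units as neonates, received antibiotics every day and drank milk replacer in place of sow's milk. All piglets were Large White × Landrace offspring of a single boar, and the tissue was taken at 75% of the length from the pyloric sphincter. IN and OUT piglets came from different facilities and sows, so that the facility, the sow and whatever else went with them cannot be told apart. The labels do not say which piglets shared a sow or which of the study's consecutive runs a piglet belonged to.

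The ileum is the last part of the small intestine. Its absorptive enterocytes carry a brush border of villin-bundled microvilli with peptidases and transporters, are sealed to each other by tight junctions, and are renewed from dividing crypt cells. In the pig the ileal wall also holds a long Peyer's patch, a lymphoid organ in which B cells proliferate in follicles. Weaning is the time at which the gut loses maternal milk and its antibodies, and at which the resident immune cells meet a changing microbiota.

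Expression was given as log2 signals, on which a difference of 1 is 2-fold, for 23969 probesets after controls were left out. Differences are IN minus OUT. A probeset was called when limma gave an unadjusted p under 0.01 with at least a 2-fold difference, the criterion of the study's methods, and adjusted p-values (Benjamini-Hochberg) were taken over all probesets. SE is the standard error of a difference in the limma fit, and the p-values given with single genes are two-sided exact permutation p-values over 6 against 6 piglets unless limma is named. Calls numbered 46, or 0.192% of the probesets tested, with 15 higher in IN piglets (0.0626%) and 31 lower (0.129%). No probeset had an adjusted p under 0.05, and the lowest was 0.777 by limma, so each call below is a call by the unadjusted criterion alone. An unadjusted p under 0.05 was reached by 1199 probesets, which is 5% of them. Every IN piglet lay above every OUT piglet in 33 probesets (0.138%) and below every OUT piglet in 13 (0.0542%). The smallest p that this exact permutation test can give is 0.00216. It is also the probability of full separation in either direction by chance, and full separation was no more common than that over all probesets.

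The IN piglets were more unlike each other than the OUT piglets were. The median SD of a probeset was 0.378 in IN piglets and 0.288 in OUT piglets, and 0.251 in IR piglets of the same day. The mean correlation of an array with the others of its group was between 0.9347 and 0.9554 in IN piglets and between 0.9577 and 0.976 in OUT piglets. The lowest value, 0.9347, was that of IN 3, whose ileum also stood apart in its immune genes, as described below. Single arrays set the number of calls. Without IN 1 there were 38 higher and 80 lower, and without IN 2 there were 7 and 17. Without OUT 4 there were 9 and 17. The lower calls alone moved past 1.5 times without IN 3 (19), IN 4 (71), IN 5 (49), OUT 2 (50) and OUT 5 (18), and the higher calls without IN 6 (24). Of 32 called probesets examined one by one, 6 were called under every alternative that could be run on them. These were OVOL1, PMP22, CCR1, LOC100518827, LOC100512700 and 1 probeset without a name.

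**Figure D1:**
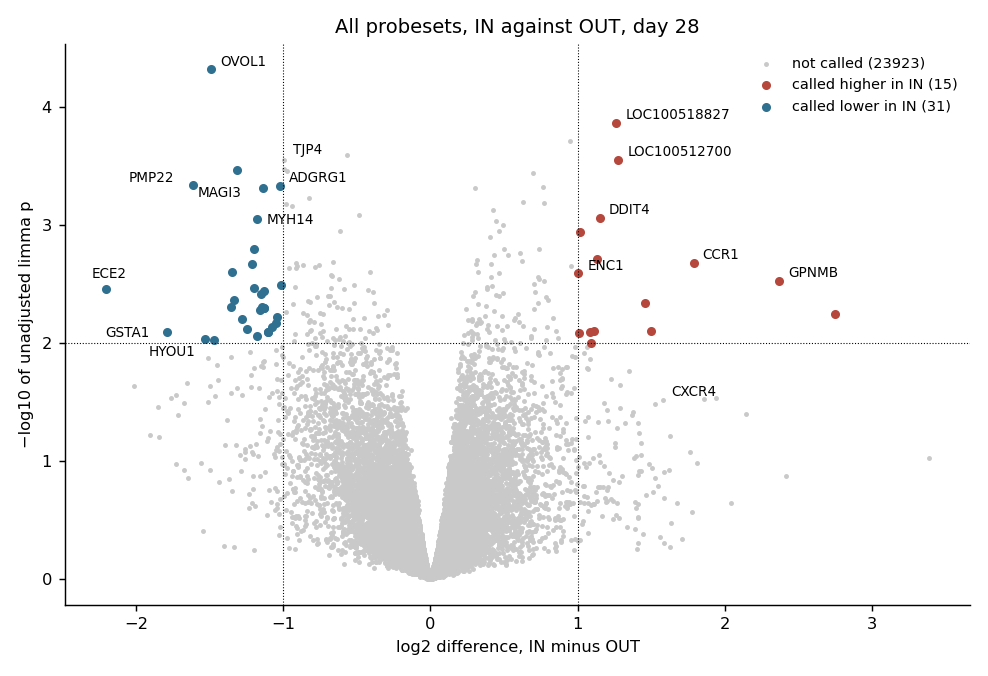
Difference in log2 signal between IN and OUT piglets at day 28 (horizontal axis) against −log10 of the unadjusted limma p (vertical axis), 1 point per probeset. The 15 probesets called higher in IN piglets and the 31 called lower lie beyond the dotted lines that mark the call, with OVOL1 at the top and TJP4 just inside the 2-fold line.

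Genes of the epithelial sheet were among those called lower in IN piglets, and 3 of them did not overlap between the groups. Over all probesets, every IN piglet lay below every OUT piglet in 13 (0.0542%) and above in 33 (0.138%). OVOL1, a zinc finger transcription factor of epithelial differentiation, had log2 signals of 6.57, 5.44, 5.73, 5.71, 5.63 and 5.34 in IN piglets 1 to 6, against 6.85, 7.50, 7.11, 7.94, 7.16 and 6.80 in OUT piglets 1 to 6. All 6 IN piglets thus lay below all 6 OUT piglets, and IN 1 was the nearest to them. The difference was -1.49 (SE 0.28, exact p = 0.00216, limma p = 4.78e-05, adjusted p = 0.777), so that the signal was 2.82-fold higher in OUT piglets. Under the 24 alternatives the difference lay between -1.66 and -1.35, and the call was kept in each. A second, dim probeset of OVOL1 had means of 2.15 in IN and 2.32 in OUT piglets and was not called.

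PMP22 is a membrane protein with 4 spans, known from myelin and also found at epithelial tight junctions. Its probeset has no symbol in the platform annotation and carries the name given in the study's supplement. It had log2 signals of 9.96, 8.44, 8.39, 9.72, 8.26 and 9.11 in IN piglets and of 10.16, 10.49, 11.33, 11.25, 10.27 and 10.06 in OUT piglets. The groups did not overlap, although IN 1 lay only just below the lowest OUT piglet. The difference was -1.61 (SE 0.37, exact p = 0.00216), and it lay between -1.81 and -1.37 under the alternatives.

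MAGI3, a scaffold protein of cell junctions, was the only called member of the list of junction and polarity genes. Its log2 signals were between 3.97 and 6.04 with a median of 5.61 in IN piglets, against 6.23 to 6.84 with a median of 6.56 in OUT piglets, again with no overlap. IN 2 was far below the other 5 IN piglets. The difference was -1.14 (SE 0.27, exact p = 0.00216). Without IN 2 the difference was -0.85, and the call was lost because 2-fold was no longer reached.

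TJP4, a tight junction protein by the name in the study's supplement, missed the 2-fold threshold narrowly. Its values were between 2.98 and 4.11 (median 3.60) in IN piglets and between 3.95 and 5.24 (median 4.59) in OUT piglets, a difference of -0.99 (SE 0.22, exact p = 0.00649). It was called when IN 4, IN 5, IN 6, OUT 2 or OUT 3 was left out, with differences between -1.12 and -1.01. CNKSR1, a scaffold of Ras signalling, had -0.73 (SE 0.34, exact p = 0.0974) and overlapped between the groups. The study lists both TJP4 and CNKSR1 as lower in IN piglets at this age. CLDN4, a claudin, had -0.65 (SE 0.29, exact p = 0.108). Over the 7 junction genes measured, 6 lay below 0 and the median difference was -0.30, beside 0.02 over all probesets.

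Among the other lower calls were 4 genes with roles at the actin cytoskeleton. They were picked from the calls and not from a list, and ENC1, an actin-binding protein described below, was called higher. MYH14, the heavy chain of a non-muscle myosin of epithelial cells, is another probeset named only by the study's supplement. It had values between 6.36 and 7.93 (median 6.93) in IN piglets and between 7.52 and 8.86 (median 8.25) in OUT piglets, with 4 IN piglets below all OUT piglets, and differed by -1.18 (SE 0.29, exact p = 0.0108). CDC42EP2, an effector of the GTPase CDC42, differed by -1.20 (SE 0.35, exact p = 0.0238), and RHOF, a GTPase of filopodia, by -1.16 (SE 0.36, exact p = 0.00433), with 5 of 6 IN piglets below all OUT piglets. CRYBG1, an actin-binding protein, differed by -1.05 (SE 0.34, exact p = 0.0152). The last 3 lost their calls when single arrays were left out. CDC42EP2 did so without IN 3, IN 5 or OUT 5 (differences of -1.06 to -0.99), RHOF without IN 2, IN 3, OUT 1, OUT 4 or OUT 6 (-1.10 to -0.94), and CRYBG1 without IN 2, IN 3, IN 5, OUT 4, OUT 5 or OUT 6 (-1.05 to -0.72). The brightest of the other 5 RHOF probesets differed by -0.92 (SE 0.25), and those with the next highest signals by -1.04 (SE 0.43) and -0.49 (SE 0.29), with none called. The remaining RHOF probesets were dim, with differences of -0.06 and, at means of 2.49 in IN and 2.18 in OUT piglets, 0.31. In the latter every IN piglet lay above every OUT piglet, opposite to the RHOF call. A brighter CRYBG1 probeset, with means of 8.30 in IN and 8.95 in OUT piglets, differed by -0.65 (SE 0.26) and was not called.

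**Figure D2:**
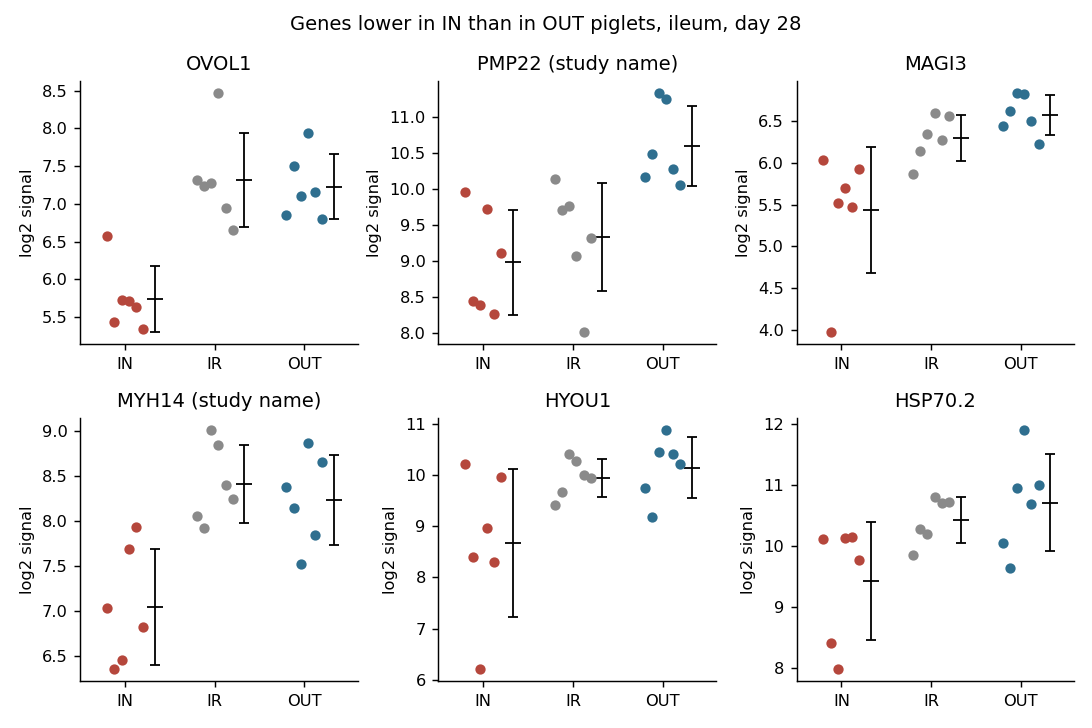
Log2 signal (vertical axes) of 6 genes called lower in IN than in OUT piglets, 1 point per piglet at day 28 in the IN, IR and OUT groups, with the mean as a dash and the SD as bars. OVOL1, PMP22 and MAGI3 do not overlap between IN and OUT piglets, whereas MYH14, HYOU1 and HSP70.2 do.

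The brush border was described by a list of 10 measured genes. None was called, and all 10 had lower means in IN than in OUT piglets, with a median difference of -0.59. An unadjusted limma p under 0.05 was reached by 5 of them, beside 5% of all probesets. The 10 genes were measured in the same piglets, so they are not independent. VIL1, the villin that bundles microvillar actin, had values between 11.03 and 12.33 in IN piglets (median 11.86) and between 12.14 and 12.48 in OUT piglets (median 12.27), a difference of -0.52 (SE 0.17, exact p = 0.0173) below the 2-fold threshold. SLC3A1, a subunit of the transporter for dibasic amino acids and cystine, had -1.01 (SE 0.36, exact p = 0.0173), and its other probeset had 0.02. TMPRSS15, the enteropeptidase that activates trypsinogen, had -1.50 (SE 0.60, exact p = 0.0671), and SLC15A1, the peptide transporter PEPT1, had -0.90 (SE 0.42, exact p = 0.0844). The call was reached by SLC3A1 without IN 3, IN 5 or OUT 3 (-1.17 to -1.12) and by TMPRSS15 without IN 5 or OUT 2 (-1.83 and -1.78). Both are on the study's list of genes lower in IN piglets at this age.

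The mean over the brush border list showed where the spread lay. It was 9.89, 9.78, 10.06, 10.88, 11.10 and 9.63 in IN piglets 1 to 6 and 11.18, 11.01, 10.23, 10.75, 10.82 and 11.23 in OUT piglets 1 to 6. IN 1, 2, 3 and 6 were thus below all OUT piglets, while IN 4 and IN 5 lay within the OUT range. Among 14 solute carriers the median difference was -0.43, with 10 below 0 and none called. SLC39A4, the zinc importer of the apical membrane, differed by -1.51 (SE 0.55, exact p = 0.0433) and was called without IN 4 or IN 5 (-1.77 and -1.89). Epithelial differentiation regulators had a median of -0.43 over 8 genes, with OVOL1 as the only call, and 4 goblet cell genes had a median of -0.36 with none called. Whole ileum was measured, so that fewer cells of a type and less RNA per cell cannot be told apart. Smooth muscle genes, with list means of 10.35 ± 0.56 in IN and 10.64 ± 0.25 in OUT piglets (SD, n = 6 each), show that the samples held the muscle wall too.

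Chaperones of the heat shock and endoplasmic reticulum families formed the other group of genes called lower in IN piglets. This list was drawn up after the calls had been seen, so its counts are a description only. Of 31 measured genes 3 were called lower, beside 0.129% of all probesets, and none was called higher. Of the 31, 29 lay below 0, with a median difference of -0.46 beside 0.02 over all probesets. HYOU1, a chaperone of the endoplasmic reticulum, had values of 10.21, 8.40, 6.21, 8.96, 8.30 and 9.96 in IN piglets and of 9.75, 9.18, 10.45, 10.89, 10.41 and 10.21 in OUT piglets. IN 1 and IN 6 lay inside the OUT range, and IN 3 was the lowest by far. The difference was -1.47 (SE 0.50, exact p = 0.0303). HSPH1, a large heat shock protein that acts as a co-chaperone, had values between 8.85 and 10.78 in IN and between 10.06 and 11.94 in OUT piglets, a difference of -1.10 (SE 0.37, exact p = 0.0455). HSPB6, a small heat shock protein abundant in muscle, had -1.25 (SE 0.41, exact p = 0.0152).

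The inducible heat shock gene HSP70.2 was measured by 3 probesets, all with differences below 0. The called probeset differed by -1.28 (SE 0.41, exact p = 0.0325). The brightest one, with means of 10.16 in IN and 10.99 in OUT piglets, differed by -0.83 (SE 0.27, exact p = 0.0173) and was called without OUT 1 (-1.02), and the remaining one by -0.59 (SE 0.35). HSP90B1, the HSP90 of the endoplasmic reticulum, differed by -0.92 (SE 0.27, exact p = 0.0152), just under 2-fold, and was called without IN 1, IN 6 or OUT 2 (-1.08 to -1.02). HYOU1 was lost on leaving out any of 9 of the 12 arrays (IN 2, 3, 4 or 5 or OUT 1, 3, 4, 5 or 6), with differences of -1.55 to -0.98. HSPH1 was lost without IN 3, 4 or 5 or OUT 3, 4, 5 or 6 (-1.06 to -0.90), and HSPB6 without IN 2, 3 or 6 or OUT 1, 3, 4 or 6 (-1.27 to -0.91). The HSP70.2 call was lost without IN 2 or 3 or OUT 3, 4, 5 or 6 (-1.29 to -0.996). Over all 31 genes the mean was 10.20, 9.57, 9.03, 9.57, 9.41 and 9.82 in IN piglets and 9.75, 9.65, 10.38, 10.53, 10.21 and 10.09 in OUT piglets. OUT 1, 2 and 6 lay within the IN range, and the lowest mean was again that of IN 3.

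The named probesets with the greatest fold change among the lower calls carry the names of enzymes. ECE2, an endothelin-converting enzyme, had values between 4.08 and 6.99 in IN piglets (median 4.73) and between 5.42 and 9.66 in OUT piglets (median 7.44), a difference of -2.21 (SE 0.65, exact p = 0.0216). GSTA1, a glutathione transferase, had -1.79 (SE 0.60, exact p = 0.0455) at a probeset with values of 3.44 to 4.95 in IN and 3.71 to 7.72 in OUT piglets. Both names come from the study's supplement. For ECE2 the supplement describes the product only by its mass, so its identity is uncertain. For GSTA1 the OUT group fell into high values in OUT 3, OUT 4 and OUT 5 and values within the IN range or close to it in the others, and the call was lost without any of IN 2, IN 3, IN 4, IN 5, OUT 3, OUT 4 or OUT 5 (-1.78 to -1.43). A much brighter probeset with the platform symbol GSTA1 had means of 10.96 in IN and 12.07 in OUT piglets (-1.11, SE 0.57). Another bright GSTA1 probeset had means of 11.22 in IN and 11.69 in OUT piglets (-0.47, SE 0.36). Neither was called. Of 19 genes of glutathione and xenobiotic metabolism, none was called and 14 lay below 0, with a median of -0.39. ABCB1, the drug efflux pump, had -0.65 (SE 0.23) and TXNRD1, thioredoxin reductase, -0.55 (SE 0.20), while GSTA4, another glutathione transferase, had 0.90 (SE 0.35) and was called without IN 5 (1.11).

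Other named genes called lower had a range of functions. ADGRG1, an adhesion G protein-coupled receptor, differed by -1.02 (SE 0.24, exact p = 0.00649), and its call was lost without IN 2, 3 or 6 or OUT 4 or 5 (-0.97 to -0.90). The study's supplement names this probeset PDE1B, so its identity is uncertain. KLHL42, a substrate adaptor of a ubiquitin ligase, differed by -1.20 (SE 0.32, exact p = 0.0108), AMPD3, an AMP deaminase, by -1.33, and LZTFL1, a protein of ciliary trafficking, by -1.35. SERHL2, a serine hydrolase, ZBT7 and ZZEF1 had differences of -1.13, -1.21 and -1.11. AMPD3, LZTFL1, ZBT7 and ZZEF1 are study names. Calls were lost for AMPD3 without OUT 2 (-1.25), for LZTFL1 without IN 1, 2 or 3 or OUT 4, 5 or 6 (-1.32 to -1.16), for SERHL2 without IN 2 or 3 or OUT 4 or 5 (-1.06 to -0.85), and for ZZEF1 without IN 1, 2 or 3 or OUT 1, 3, 4 or 5 (-1.10 to -0.84). The steadiest of the probesets with no gene name in the sources used here had values between 6.22 and 7.99 in IN piglets and between 7.50 and 8.55 in OUT piglets, a difference of -1.31 (SE 0.29, exact p = 0.00866) in which 5 IN piglets lay below all OUT piglets. In all, 12 of the 31 lower probesets had 1 platform symbol, 8 had only a study name and 11 had none.

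Among named genes called higher in IN piglets, those of myeloid cells and chemokine responses led by fold change. GPNMB, a lysosomal glycoprotein of macrophages and melanocytes, had log2 signals of 8.94, 9.42, 7.38, 6.65, 9.08 and 7.85 in IN piglets and of 4.32, 5.39, 7.68, 5.88, 5.24 and 6.57 in OUT piglets. IN 1, 2, 5 and 6 lay above all OUT piglets, and OUT 3 reached into the IN range. The difference was 2.37 (SE 0.69, exact p = 0.00866), or 5.18-fold. Of the 4 other GPNMB probesets, all dimmer, those with the next highest signals had 0.96 (SE 0.27) and 0.90 (SE 0.35), just short of 2-fold, and the rest had 0.10 and -0.06. GPNMB was the only one of 12 macrophage and dendritic cell genes to be called, and the median of that list was -0.05, with 5 genes above 0 and 7 below.

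CCR1, a receptor for inflammatory CC chemokines on myeloid and T cells, had values of 5.12, 6.35, 6.52, 3.55, 3.77 and 3.34 in IN piglets and of 2.81, 3.12, 2.84, 3.76, 2.81 and 2.59 in OUT piglets. The IN values were split, with IN 1, 2 and 3 high and IN 4, 5 and 6 in the OUT range or just above it. The signals are low, and the probeset did not pass the filter on dim probesets. The difference was 1.79 (SE 0.49, exact p = 0.00649). CCR1 was the only one of 21 chemokines and chemokine receptors to be called. The median of that list was 0.26, and 15 of its members lay above 0.

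CXCR4, the receptor for CXCL12 that B cells and other leukocytes carry, had a wider difference than most called genes but did not pass. Its values were 8.20, 11.22, 7.37, 9.05, 8.80 and 11.09 in IN piglets and 6.70, 7.13, 6.77, 7.29, 8.51 and 9.87 in OUT piglets. The difference was 1.58 (SE 0.67, exact p = 0.0844), and CXCR4 was called without IN 3 (1.96) or without OUT 6 (2.01). The study lists CXCR4 as higher in IN piglets at this age on its arrays. It reports that real-time PCR of CXCR4 at this age went the other way, lower in IN piglets, without reaching significance. The 3 highest values, in IN 2, IN 6 and OUT 6, belonged to the piglets with the most B cell and follicle RNA. The mean of the 6 B cell and follicle genes was 9.51 in IN 2, 9.60 in IN 6 and 8.34 in OUT 6, against 4.87 to 5.51 in the other IN piglets and 5.06 to 5.89 in the other OUT piglets. LTB, the lymphotoxin subunit that organizes follicles, is 1 of these 6 genes and so helps to set that mean. It was at 10.89 and 10.95 in IN 2 and IN 6 and at 8.96 in OUT 6. The other IN piglets had 3.93 to 5.05 and the other OUT piglets 4.06 to 4.70. LTB differed by 1.59 (SE 1.198, exact p = 0.24) between the groups, and all 6 B cell genes lay above 0 with a median of 0.73 and none called. The part of follicle RNA in the difference of CXCR4 was not tested. LTBR, the lymphotoxin receptor of epithelial and stromal cells, had -0.78 (SE 0.32, exact p = 0.0411) and overlapped between the groups. It was not called here, whereas the study lists it as lower in IN piglets at this age.

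**Figure D3:**
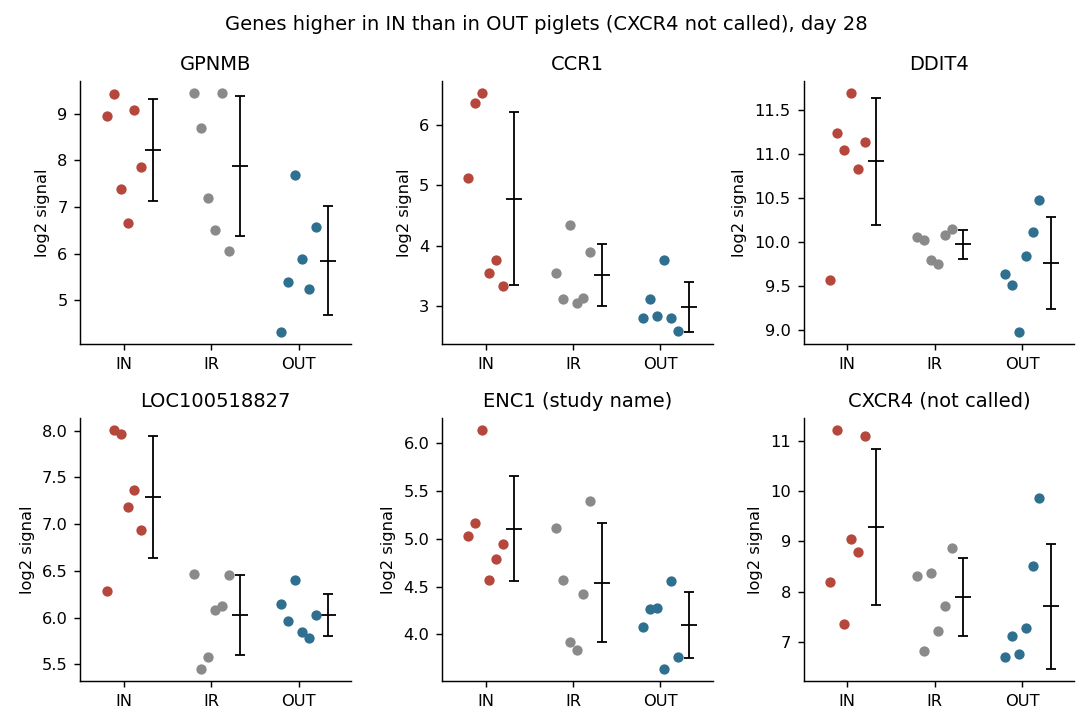
Log2 signal (vertical axes) of 5 genes called higher in IN than in OUT piglets and of CXCR4, which was not called, 1 point per piglet at day 28 in the IN, IR and OUT groups, with the mean as a dash and the SD as bars. ENC1 does not overlap between IN and OUT piglets, CCR1 is high in 3 of 6 IN piglets, and CXCR4 is highest in 2 IN piglets and 1 OUT piglet.

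DDIT4, a stress- and glucocorticoid-induced inhibitor of mTORC1, was called higher in IN piglets. It had values of 9.57, 11.24, 11.04, 11.69, 10.83 and 11.13 in IN piglets and of 9.64, 9.52, 8.98, 9.84, 10.12 and 10.48 in OUT piglets. All IN piglets except IN 1 lay above all OUT piglets. The difference was 1.15 (SE 0.29, exact p = 0.013). The call was lost without IN 4 or without OUT 3, where the fold change was just under 2. FKBP5, a glucocorticoid-induced co-chaperone, had 0.49 (SE 0.20, exact p = 0.0671) and was not called. Of 11 genes of the glucocorticoid and clock response, 7 lay above 0, with a median of 0.34 and DDIT4 as the only call.

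LOC100518827, which the study's supplement names TAFA2, a secreted chemokine-like protein, was the steadiest of the higher calls. Its values were between 6.28 and 8.01 in IN piglets (median 7.27) and between 5.78 and 6.40 in OUT piglets (median 6.00), a difference of 1.26 (SE 0.26, exact p = 0.00433) in which 5 IN piglets exceeded every OUT piglet. LOC100512700, a non-coding RNA in RefSeq, had 7.06 to 8.99 in IN and 5.96 to 7.30 in OUT piglets, a difference of 1.28 (SE 0.28, exact p = 0.00433). ENC1, an actin-binding protein by its study name, had 4.57 to 6.14 in IN and 3.64 to 4.56 in OUT piglets. The groups did not overlap, though only just, and the fold change of 2.01 (exact p = 0.00216) was at the threshold. The call was lost without IN 2, IN 3, OUT 4 or OUT 6 (0.80 to 0.99). Another ENC1 probeset, with means of 4.92 in IN and 4.44 in OUT piglets, differed by 0.48 (SE 0.33) and was not called.

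GLRX, a glutaredoxin, and RPL24, a ribosomal protein, were called with differences of 1.11 (SE 0.37) and 1.09 (SE 0.36). The call of GLRX was lost without IN 2, 4 or 5 or OUT 1, 3, 4, 5 or 6 (0.87 to 1.15) and that of RPL24 without IN 1, 2, 3 or 4 or OUT 1, 2, 4 or 6 (0.88 to 1.14). A brighter GLRX probeset differed by 0.70 (SE 0.21) without reaching 2-fold. A much brighter RPL24 probeset, with means of 13.26 in IN and 13.10 in OUT piglets, differed by 0.16 (SE 0.09). The greatest difference of all, 2.75 (SE 0.87, exact p = 0.0108), was that of an unnamed probeset with values of 4.39, 8.71, 2.31, 8.17, 3.80 and 3.07 in IN piglets and of 1.92 to 2.63 in OUT piglets. It rested on IN 2 and IN 4, and was not called without IN 2, IN 4, OUT 2 or OUT 5 (2.02 to 2.68). Lysosomal genes leaned the same way as GPNMB without being called, with 13 of 14 above 0 and a median of 0.31. Their mean did not follow GPNMB from piglet to piglet. It was highest in IN 3 (10.99) among IN and in OUT 2 (10.67) among OUT piglets, where GPNMB was at 7.38 and 5.39. GGA2 and M6PR, which sort lysosomal enzymes, had 0.87 (SE 0.33) and 0.31 (SE 0.13), GGA2 being called without IN 5 or OUT 2, and NPC1, the cholesterol exporter of the lysosome, was the exception with -0.73 (SE 0.25).

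The immune and proliferation lists varied far more between piglets than between the facilities. The mean of 15 cell cycle genes was 8.67, 8.60, 5.17, 5.75, 5.36 and 9.12 in IN piglets 1 to 6, and 6.11, 5.18, 8.36, 8.28, 8.31 and 8.69 in OUT piglets 1 to 6. Low values, in IN 3, 4 and 5 and in OUT 1 and 2, were thus separated by a wide gap from high values in both groups, and none of the 15 genes was called. Cholesterol synthesis genes were lowest in OUT 1 and OUT 2 (6.43 and 6.59), and at 7.11 in IN 4 and IN 5 and 7.37 in IN 3, against 7.64 to 8.64 in the other IN and 8.14 to 9.35 in the other OUT piglets. Type I interferon-induced genes had list means of 8.69 ± 1.79 in IN and 8.19 ± 1.18 in OUT piglets (SD, n = 6 each). They were lowest in IN 3 (5.38), OUT 2 (6.52) and OUT 1 (6.95), and of 20 genes 18 lay above 0 but none was called.

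IN 3 had the lowest mean of the 12 piglets in each of the 6 leukocyte lists. Its plasma cell and IgA genes averaged 5.54, against 7.90 to 9.27 in the other IN piglets and 7.90 to 9.43 in OUT piglets. JCHAIN and PIGR belong to this list. JCHAIN, which joins IgA into dimers, was at 4.70 in IN 3 and at 10.91 to 12.29 in the other IN piglets. OUT piglets had 11.25 to 12.22. PIGR, the epithelial receptor that carries IgA into the lumen, was at 2.22 in IN 3, against 5.17 to 9.91 in the other IN and 5.83 to 9.91 in OUT piglets. T and NK cell genes averaged 3.31 in IN 3, against 5.28 to 7.02 in the other IN and 4.02 to 7.22 in OUT piglets. JCHAIN differed by -0.94 with IN 3 and by 0.26 without it, and neither value was called. Without IN 3 the calls were 21 higher and 19 lower, 20 of them shared with the 46.

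**Figure D4:**
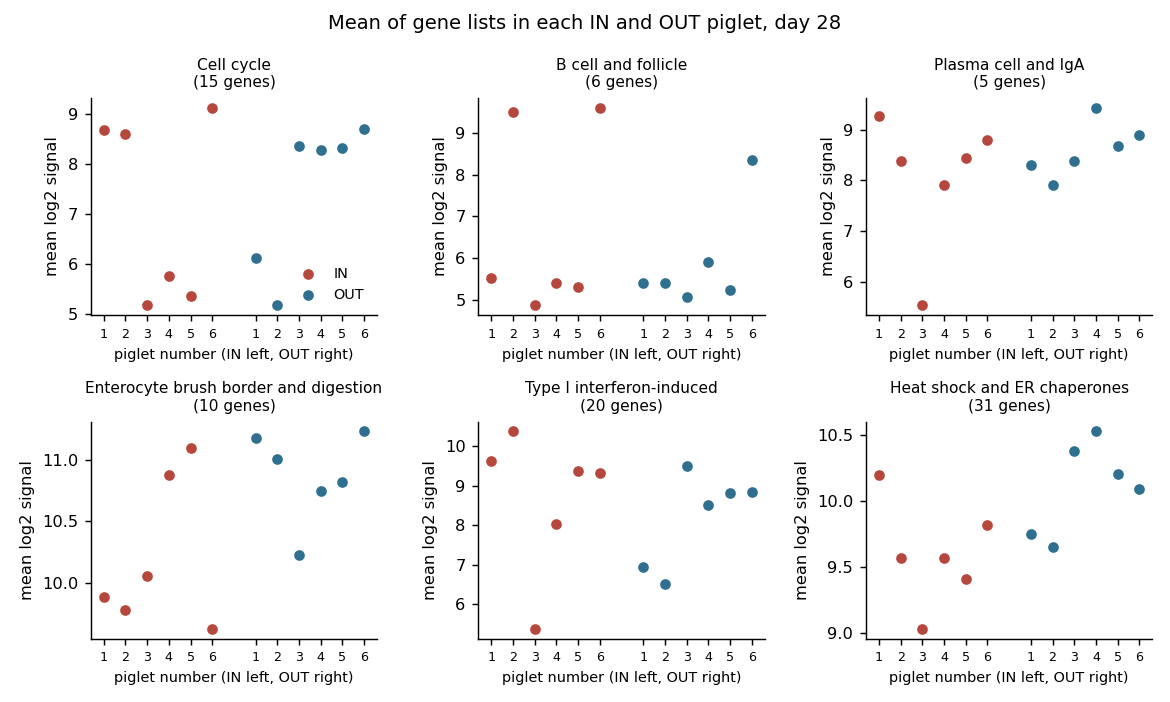
Mean log2 signal (vertical axes) of 6 gene lists in each IN and OUT piglet at day 28 (horizontal axes, piglets by their label number). Cell cycle genes are low in IN 3, 4 and 5 and in OUT 1 and 2, B cell genes are high in IN 2, IN 6 and OUT 6, and plasma cell genes are low in IN 3.

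The IR piglets of day 28 were set against the same OUT piglets, so the 2 comparisons share their OUT arrays and are given side by side. OVOL1 differed from OUT piglets by -1.49 in IN and by 0.09 in IR piglets (SE 0.28 each), MYH14 by -1.18 and 0.18 (SE 0.29 each), and MAGI3 by -1.14 and -0.28 (SE 0.27 each). These genes of the epithelium were not called in IR piglets. PMP22 differed by -1.61 in IN and by -1.26 in IR piglets (SE 0.37 each), and SLC39A4 by -1.51 and -1.74 (SE 0.55 each). GPNMB differed by 2.37 in IN and by 2.04 in IR piglets (SE 0.69 each), CCR1 by 1.79 and 0.53 (SE 0.49 each), and DDIT4 by 1.15 and 0.22 (SE 0.29 each). PMP22 and GPNMB were thus called in both comparisons, and SLC39A4 in that of IR alone.

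Other piglets from the same facilities were measured at days 5 and 56. Of the 15 probesets called higher in IN piglets at day 28, 2 had the same sign at day 5 and 4 at day 56, and none was called at either age in either direction. Their median difference was -0.46 at day 5, 1.15 at day 28, where they were chosen, and -0.25 at day 56. Of the 31 called lower, 22 had the same sign at day 5 and 12 at day 56, with medians of -0.16 at day 5, -1.18 at day 28 and 0.24 at day 56. PMP22 was the one called again in the same direction, with differences of -0.80 at day 5 (SE 0.42), -1.61 at day 28 and -1.32 at day 56 (SE 0.42). HSP70.2 had -0.75 at day 5 and -0.86 at day 56 (SE 0.57 each), without being called at those ages. At day 56, 2 of the 31 were called in the opposite direction, higher in IN piglets: GSTA1 (1.79, SE 0.59) and a probeset without a name (1.07, SE 0.35).

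The change of the facility difference with age was tested in 1 model over all 9 groups. Between day 5 and day 28 it passed p under 0.01 and 1 on the log2 scale in 105 probesets (0.438%), and between day 56 and day 28 in 301 (1.26%), with no adjusted p under 0.05 and lowest adjusted p-values of 0.749 and 0.085 by limma. Both counts moved by more than 1.5 times with single arrays, to 159 and 590 without IN 1 and to 61 and 170 without IN 2, and against day 5 to 158 without IN 4 and 166 without IN 5. OVOL1 had 0.31 at day 5 and 0.15 at day 56 (SE 0.32 each), and day 28 differed from day 5 by -1.80 (SE 0.46, adjusted p = 0.749 by limma) and from day 56 by -1.64 (SE 0.46, adjusted p = 0.266). ENC1 had -1.02 at day 5 (SE 0.40), from which day 28 differed by 2.02 (SE 0.56, adjusted p = 0.749). DDIT4 at day 28 differed by 1.59 from day 5 and by 1.502 from day 56 (SE 0.46 each). GSTA1 had -1.79 at day 28 and 1.79 at day 56, a change of -3.58 (SE 0.84, adjusted p = 0.253). PMP22 differed by -0.82 from day 5 and by -0.30 from day 56 (SE 0.59 each). These genes were named for their values at day 28, which by itself widens the gap to the other ages.

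**Figure D5:**
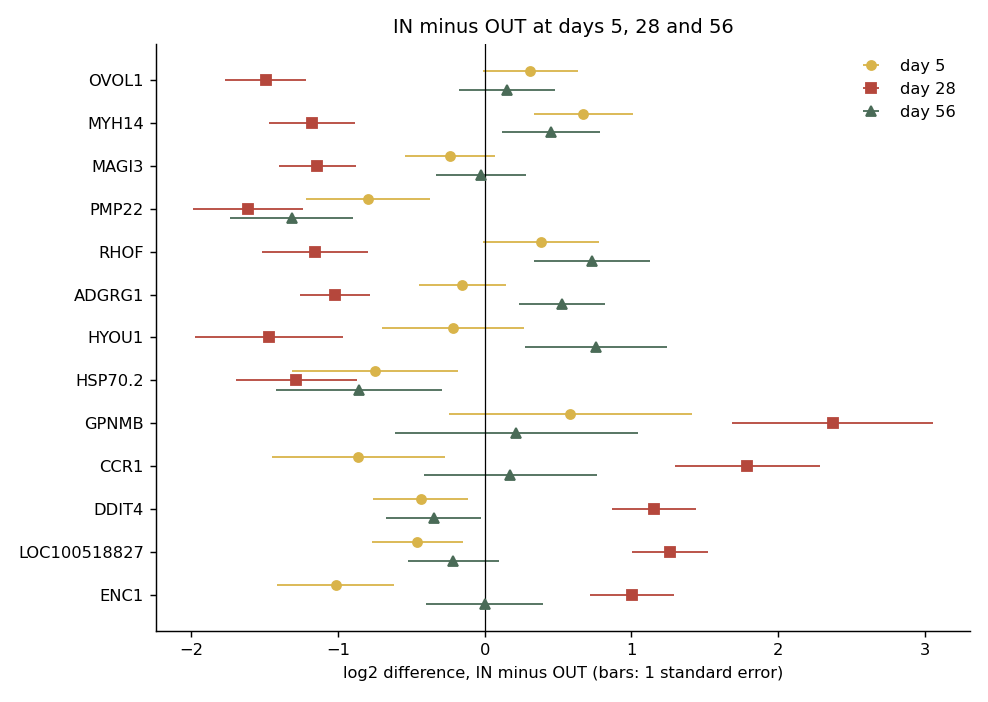
Difference in log2 signal between IN and OUT piglets (horizontal axis) at days 5, 28 and 56 for 13 named genes (vertical axis), with bars of 1 SE from the limma fits. PMP22 and HSP70.2 lie below 0 by more than 1 SE at all 3 ages, while OVOL1, MYH14 and RHOF lie below 0 at day 28 alone.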

How the data were processed

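Ileal RNA was hybridized to Affymetrix GeneChip Porcine Genome arrays, 1 per piglet. Per the labels, the authors scanned them with GCOS 1.2 and normalized them by GCRMA, and the deposited values are log2 signals, used as deposited (-0.26 to 14.72, with day 28 array medians between 4.00 and 4.11). Arrays give no counts, so their number limits the precision. The table holds 24123 probesets. After 154 control probesets were left out, 23969 were tested, dim ones included.

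limma 3.58.1 (R 4.3.3) was fitted to the 18 day 28 arrays with IN, OUT and IR as groups. The study's methods add run as a block, but the labels do not give the run, so none was fitted. The study's list of calls for this comparison is not the same as the one here, and the reason was not tested. Days were compared in a fit of all 54 arrays. Exact permutation tests (scipy 1.17.1) were two-sided, over 6 against 6 piglets, for 63 probesets. The fits were checked on simulated data.

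Platform annotation gave 1 symbol to 10140 probesets, several to 157 and none to 13672, of which 112 carry a name from the study's supplement. Each list gene was represented by its brightest probeset. Genes were named by these rules: up to 15 called rises and falls with 1 symbol, called list members, genes the study names, and up to 3 members per list by smallest p. Other called probesets, HSP70.2's brightest probeset, HSP90B1, HSP90AA1, LTB, PIGR, JCHAIN and FABP6 were added. The comparison, the 34 lists and the added chaperone list were chosen with earlier results of these data known. A piglet is the replicate, and where piglets share a sow the p-values are too small. Each run held piglets of all 3 groups, so a run left out of the fit adds to the spread within groups. Alternatives were blocks, other groups in the fit, filters, scalings, weights, trend, the F-test and leaving out each array.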

Additional observations from a re-analysis of the deposited data

Results flagged for a closer look

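In 196 groups of 6 values, those of the named probesets and of the lists in IN and in OUT piglets, 12 had 1 piglet standing apart by Dixon's criterion. Chance flags about 1 in 20 groups, which is 9.8 of 196. OVOL1 was highest in IN 1 at 6.57, against 5.34 to 5.73 in the other IN piglets. MAGI3 was lowest in IN 2 at 3.97, against 5.47 to 6.04, and SLC3A1 was lowest in IN 6 at 7.15, against 8.56 to 9.26.

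IN 3 stood below the other IN piglets for JCHAIN (4.70, against 10.91 to 12.29), for the plasma cell and IgA list (5.54, against 7.90 to 9.27) and for MHC class I and peptide loading (7.86, against 9.61 to 10.10). OUT 6 stood above the other OUT piglets for LTB (8.96, against 4.06 to 4.70) and for the B cell and follicle list (8.34, against 5.06 to 5.89). It also did so for the TNF, lymphotoxin and NF-kappaB list (6.56, against 5.36 to 5.69). JCHAIN is a member of the plasma cell list and LTB of the B cell list, so these flags are not independent. OUT 1 was highest for fibroblast and matrix genes (9.90, against 9.07 to 9.29) and for endothelium and pericyte genes (6.87, against 5.79 to 6.13), and lowest for HSP90AA1 (12.21, against 12.58 to 12.68).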

How the results depend on the processing

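The numbers of called probesets were 15 higher and 31 lower in IN piglets. At least 1 of them moved by more than 1.5 times without any single IN array, or without OUT 2, OUT 4 or OUT 5. The same was true of several changes of the fit. With only the IN and OUT arrays there were 18 lower calls. With only these arrays and a replicate block by label number in twos there were 7 higher and 17 lower, and with IN 3 left out as well, chosen after seeing the data, 10 lower. The moderated F-test, which also draws on IR piglets, gave 20 lower, and 1 probeset with an adjusted p under 0.05 in place of 0. With the replicate block over all 3 groups there were 12 higher and 36 lower by number and 11 and 35 by number in twos, with 35 and 39 of the 46 calls shared. Over all probesets the deviations of same-numbered IN and OUT piglets correlated at 0.68 for 1 number and at -0.434 to -0.218 for the other 5. Such correlations take in every difference between piglets, so they cannot show whether single numbers mark the runs. Whether numbers in twos do so was not tested. Interferon-induced genes averaged 7.39 and 6.89 in IR 1 and 2 and 6.95 and 6.52 in OUT 1 and 2, against 9.48 to 10.57 in the other IR and 8.52 to 9.50 in the other OUT piglets, and 9.63 and 10.38 in IN 1 and 2. Leaving out 1 array gave 7 to 38 higher and 17 to 80 lower, and 0 by adjusted p in each case. For the change of the difference between ages, leaving out 1 array gave 61 to 166 probesets against day 5 and 170 to 590 against day 56. Of 1510 gene values under alternatives, 1289 kept their side of the threshold, 183 lost the call, 36 gained it and 2 changed sign, both of JCHAIN. Leaving out 1 array gave JCHAIN -1.26 to 0.26, and 0.21 without IN 3 with only IN and OUT and the block in twos. Medians of lists kept within 1 SD of the piglets in 836 of 840, a wide margin for lists that vary much between piglets. Sign changes of the median were most frequent for T and NK cell genes, in 8 of 24 settings (-0.24 to 0.52). They occurred in 6 settings each for macrophage and dendritic cell genes (-0.23 to 0.40) and for pan-leukocyte genes (-0.37 to 0.66). The IN group's spread and 6 piglets a group limit what can be called. The cause of these changes was not tested.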

Other observations

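Gene groups not described above held few or no calls in IN against OUT piglets. Of 16 immediate early and stress genes, HSPH1 was called lower, and 8 lay above 0 with a median of 0.06. FOS, an AP-1 subunit, had -0.88 (SE 0.33), and was called without IN 1, IN 2 or IN 4 (-1.03 to -1.01). NFKBIA, the inhibitor of NF-kappaB, had 0.93 (SE 0.35), and was called without IN 3 or IN 5 (1.06 and 1.19). The 9 genes of the TNF, lymphotoxin and NF-kappaB list had a median of 0.20 with none called, and TNFRSF1A, a TNF receptor, had -0.67 (SE 0.27).

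None was called among 4 Paneth cell and crypt antimicrobial genes (median -0.62), 8 genes of ileal bile acid and fat handling (-0.21), 7 enteroendocrine genes (0.01), 12 genes of MHC class I (-0.12), 11 of MHC class II (0.12), 14 of bacterial sensing (0.08), 6 of granulocytes and mast cells (0.16), 9 pan-leukocyte genes (0.13), 13 T and NK cell genes (0.03) or 5 plasma cell genes (-0.58). The same was true of 7 smooth muscle (-0.24), 9 fibroblast (-0.17), 12 endothelium (-0.03), 7 enteric neuron and glia (0.15), 4 red blood cell (-0.07), 16 fatty acid (-0.19), 12 cholesterol synthesis (-0.24), 7 prostaglandin (0.13), 9 iron and metal (0.09), 15 cell cycle (-0.49) and 20 interferon-induced genes (0.43).

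FABP6, the ileal bile acid binding protein, had -1.54, and DMBT1, a scavenger receptor of the mucosa, -1.44, with neither called. RGS5, a pericyte gene, had -0.66 (SE 0.20), and FBLN1, a matrix protein, -0.81 (SE 0.27), both with 4 of 6 IN piglets below all OUT piglets. CD5L, a macrophage product, had 5 of 6 IN piglets above all OUT piglets, IN 4 (3.29) and IN 6 (3.25) only just. Its values were 2.68 to 6.09 in IN and 2.55 to 3.22 in OUT piglets, a difference of 1.18 (SE 0.70). Another CD5L probeset differed by 0.23 (SE 0.40), and neither was called.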
